A study of Mus musculus with 16 samples.

Results

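The DNA replication machinery was examined in epithelial cells of the mouse distal colon through 52 genes whose products open, copy and repackage DNA in S phase. The genes are defined by name and function, by a rule that uses no measured value, although the set was drawn up with earlier results of these data known. All 52 were found among the 22396 gene symbols of the deposited tables. They fall into 12 roles: the MCM helicase, the GINS complex, helicase activation, origin licensing, the sliding clamp, clamp loaders, polymerases and primase, lagging strand joining, single strand binding, chromatin and methylation copying, nucleotide supply, and cyclin E. Of the 52, 51 had a mean of at least 1 TPM (a relative transcript abundance, corrected for transcript length and scaled to a fixed total) over 16 mice. The exception was Rpa1, the large subunit of replication protein A, whose listed transcript was under 1 TPM in every mouse.

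Replication begins when the origin recognition complex, Cdc6 and Cdt1 place the ring of Mcm2 to Mcm7 on DNA, a step called licensing. In S phase Cdc45 and the GINS complex join the ring and make it an active helicase, primase and the polymerases copy the strands, and Pcna holds the polymerases on DNA. In the colon, dividing cells lie in the lower part of the crypt, and cells that reach the surface have left the cell cycle. Many of the genes are known targets of E2F, a family of transcription factors that controls entry into S phase.

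The study asked how loss of TNFR2, a receptor of tumor necrosis factor encoded by Tnfrsf1b, changes the epithelium during repair after dextran sulfate sodium (DSS), a compound in the drinking water that injures the colon. Cells carrying the epithelial surface protein EpCAM were isolated by FACS from distal colon mucosa, and polyA RNA of each mouse was sequenced as its own library. All mice carried floxed Tnfr2 alleles (Tnfr2-f/f), and those labelled knockout also carried Vil1::Cre, which drives Cre recombinase in intestinal epithelium to remove exon 2. The groups were 4 controls and 5 labelled knockouts given water, and 3 controls and 4 labelled knockouts given 3% DSS for 6 days, all dissected on day 12 by the labels. By the study's methods the mice were 8 weeks old, injured regions of DSS colons were separated under a stereomicroscope before sorting, uninjured mice are described there as day 0, and a higher DSS concentration is given there than in the labels. All 7 DSS mice were female and came from cages of 2 and 5. The water mice were 4 males in cage a and 5 females in cage b. No cage held both treatments, so treatment and cage cannot be told apart.

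The files hold no counts, so the read depth behind each value is unknown. The listed TPM of a mouse summed to between 487469 and 861109, with 10310 to 10961 genes at 1 TPM or more. The tables of DSS and water mice were normalized separately, so levels are compared between them only after a rescaling of all 16 mice by the median ratio over 7638 genes (factors of 0.88 to 0.93 in water and 1.13 to 1.24 after DSS), with no test. Tnfrsf1b was at 9.23 to 14.8 TPM in labelled knockouts against 11.1 to 15.5 TPM in controls given water, and at 13.5 to 27 TPM against 13.3 to 22.2 TPM after DSS. The library labels are therefore not checked by the targeted gene, and "labelled knockout" is used throughout. Epithelial markers (12 of 12 found, none under 1 TPM in every mouse) had a mean log2(rescaled TPM + 1) of 7.9 to 8.55 over the 16 mice. Leukocyte markers (15 genes) lay at 3.51 to 4.48 in water mice and at 0.89 to 1.4 after DSS, where Cd3e, Cd3g, Cd8a, Cd79b and Ms4a1 were under 1 TPM in every mouse. In sorted bulk RNA, fewer cells of a type and less RNA per cell cannot be told apart.

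The levels differed widely between genes of one role. Over the 16 mice, 19 genes had a mean rescaled level of at least 10 TPM, 32 lay between 1 and 10 TPM, and Rpa1 was at 0.22 TPM. Pcna (chr2:132249162-132253314 of GRCm38, minus strand), the clamp, was the highest of the set with a mean of 84.2 TPM. Rpa3 (chr6:8255936-8259173, minus strand), the small subunit of replication protein A, followed with 35.6 TPM, and Mcm6 (chr1:128331590-128359664, minus strand) with 30.4 TPM.

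The subunits of a complex were not listed at equal levels. Among the 6 MCM genes the means ran from 12.9 TPM for Mcm2 to 30.4 TPM for Mcm6, 2.35-fold apart. In the GINS complex, whose 4 proteins form a single unit, Gins4 was 10.7-fold above Gins3 (13.3 against 1.25 TPM). The clamp loaders ran from Rfc2 at 1.69 TPM to Rfc3 at 13.6 TPM, and the polymerase genes from Pole at 2.3 TPM to Pold2 at 18.8 TPM. The tables list only principal transcripts, and for 19 of the 52 genes under 10% of the listed transcript's 31-base windows are absent from the gene's other annotated transcripts. For 8 genes (Mcm7, Cdc6, Pcna, Rfc5, Rpa3, Uhrf1, Tyms and Rrm2) over 10% of the windows also occur in other genes, for Pcna mostly in Pcna-ps2, and the levels of these are uncertain.

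**Figure D1:**
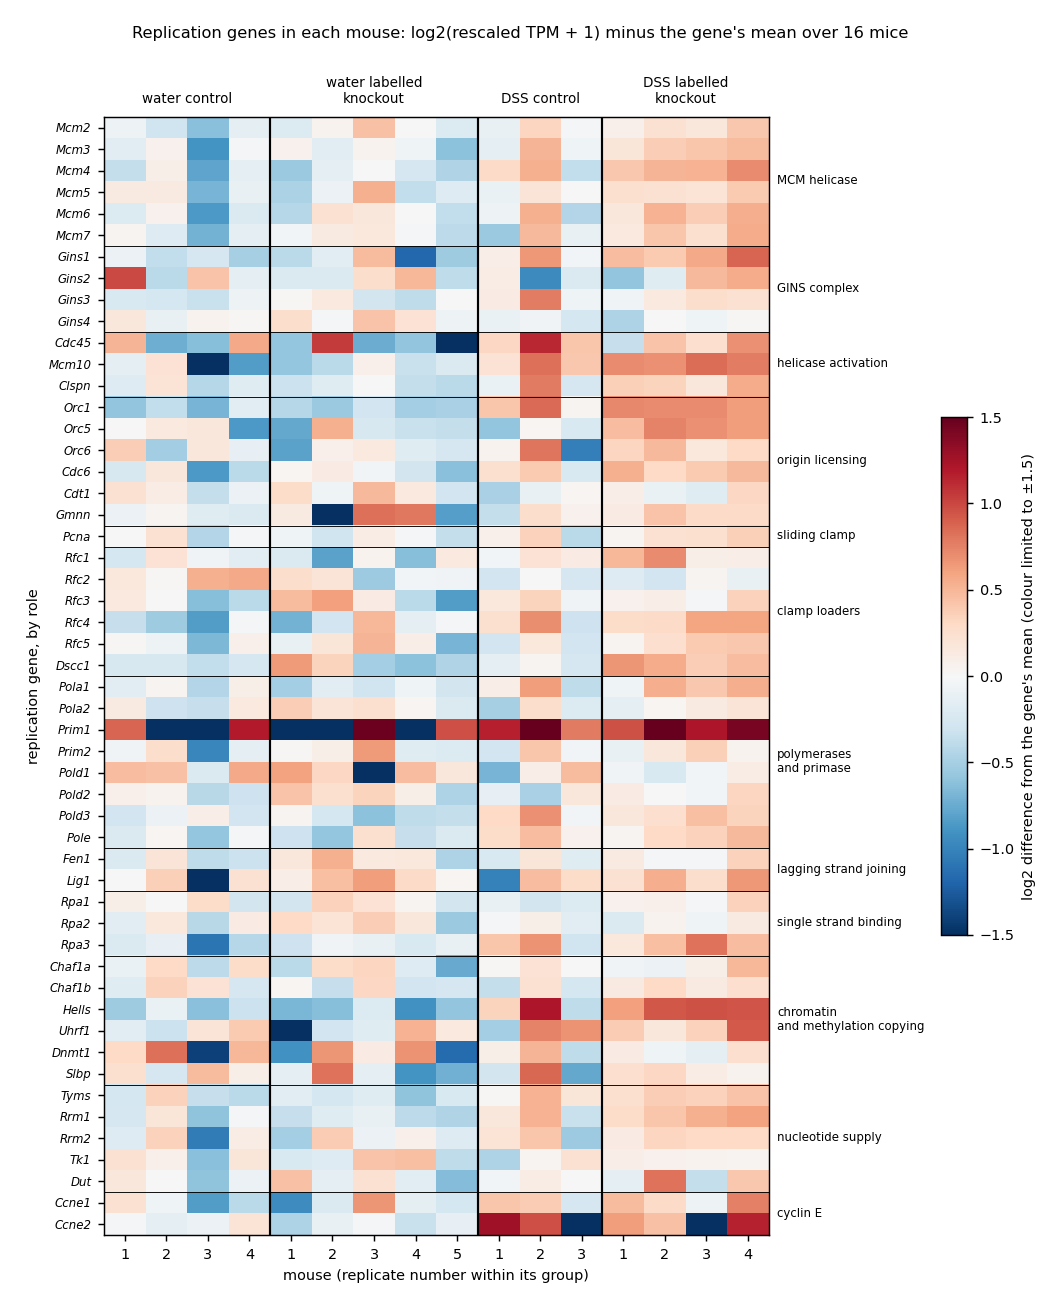
Level of each replication gene (rows, by role) in each mouse (columns, by group), as log2(rescaled TPM + 1) minus the gene's mean over 16 mice, with red above and blue below that mean. The DSS columns other than DSS control 3 are redder than most water columns, and water control 3 and DSS control 3 are bluer than the other mice of their groups.

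The question of injury against no injury was taken first. After DSS most replication genes had a higher mean than in water, but few were separated between the mice. In controls, 40 of the 51 genes with at least 1 TPM had a higher mean after DSS, with a median log2 difference of 0.22, while over all 11245 genes the median was -0.003 and 49.6% were higher. In labelled knockouts 44 of 51 had a higher mean, with a median of 0.40 against -0.01 over all genes. Over all mice, 43 of 51 were higher with a median of 0.30. Of the 51 genes, 37 had the higher mean after DSS in both genotypes, and Gins4, Cdt1, Rfc2 and Pola2 had the lower mean in both.

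Separation of the groups was counted beside that of all genes. In controls, every DSS mouse lay above every water mouse for 5 genes (Gins1, Gins3, Mcm10, Orc1 and Pole), or 9.8%, against 9.54% of all genes. Gins3 averaged 0.90 TPM in water and 1.83 TPM after DSS. It thus reached 1 TPM through the DSS mice, where it was higher, and its separation carries no weight. Rfc2 was the gene for which every DSS control lay below every water control, against 14.8% of all genes. In labelled knockouts 12 genes (Mcm3, Mcm4, Mcm10, Clspn, Orc1, Orc6, Cdc6, Pold3, Rpa3, Hells, Tyms and Rrm1), or 23.5%, were higher without overlap against 17% of all genes, and 0 of 51 were lower against 18.4%. With all 7 DSS and 9 water mice, 2 genes (Mcm10 and Orc1), or 3.92%, were higher against 4.09% of all genes, and 0 were lower against 7.2%. Within females, the controls (3 DSS, 2 water) had 7 higher (16.7% of all genes) and 3 lower (21.7%) with a median of 0.08. The labelled knockouts (4 DSS, 3 water) had 17 higher (21% of all genes) and 0 lower (23.8%) with a median of 0.37. The shares of all genes were larger too with these fewer mice. Over the females of both genotypes 3 were higher (Mcm10, Orc1 and Pold3), against 6.4% of all genes.

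The scaling and single libraries moved these counts. On TPM as deposited, with no rescaling between the tables, 19 genes were higher and 0 lower without overlap in controls, against 31% of all genes higher and 8.12% lower. Scaled by epithelial markers, 1 was higher (9.62% of all genes) and 0 lower (10.2%) in controls. Without DSS control 3 the controls gave 16 higher genes, against 23.9% of all genes, and the pooled mice gave 7, against 11.7%. The controls gave 8 higher genes without DSS control 1 (11.9% of all genes) and 8 without water control 2 (12.1%). Without water labelled knockout 3 the labelled knockouts gave 21 higher genes (18.5% of all genes) and the pooled mice 4 (4.51%). The lower genes numbered 3 in controls without DSS control 2 (15.9% of all genes) and 2 without water control 2 (16.8%). In labelled knockouts there was 1 without water labelled knockout 3 (20.3% of all genes) and 1 without water labelled knockout 5 (20.4%).

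Orc1 (chr4:108579423-108614833, plus strand), the large subunit of the origin recognition complex, was separated over all mice, except when scaled by epithelial markers, where it overlapped in controls and over all mice. Its rescaled level was 2.29, 2.85, 2.05 and 3.43 TPM in water controls and 2.69, 2.37, 3.06, 2.48 and 2.55 TPM in water labelled knockouts. After DSS it was 5.62, 7.95 and 4.12 TPM in controls and 7.17, 7.08, 7.12 and 6.66 TPM in labelled knockouts. On the rescaled level every DSS mouse was above every water mouse, and DSS control 3 came nearest to the water mice. The mean was 2.47-fold higher after DSS over all mice, and the log2 difference was 0.89 in controls (pooled SD 0.33) and 1.14 in labelled knockouts (pooled SD 0.08).

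Mcm10 (chr2:4989714-5012791, minus strand), which helps to start the loaded helicase, had the other separation. Its level was 3.18, 4.40, 0 and 1.59 TPM in water controls and 2.11, 2.52, 3.90, 2.67 and 2.98 TPM in water labelled knockouts. After DSS it was 4.41, 7.20 and 5.11 TPM in controls and 6.56, 6.44, 7.27 and 6.89 TPM in labelled knockouts. The lowest DSS mouse and the highest water mouse, both controls, were almost level, and the gene was listed at 0 in water control 3. The log2 difference was 1.23 in controls (pooled SD 0.79) and 1.04 in labelled knockouts (pooled SD 0.18). Leaving out each mouse gave 0.74 to 1.55 in controls.

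**Figure D2:**
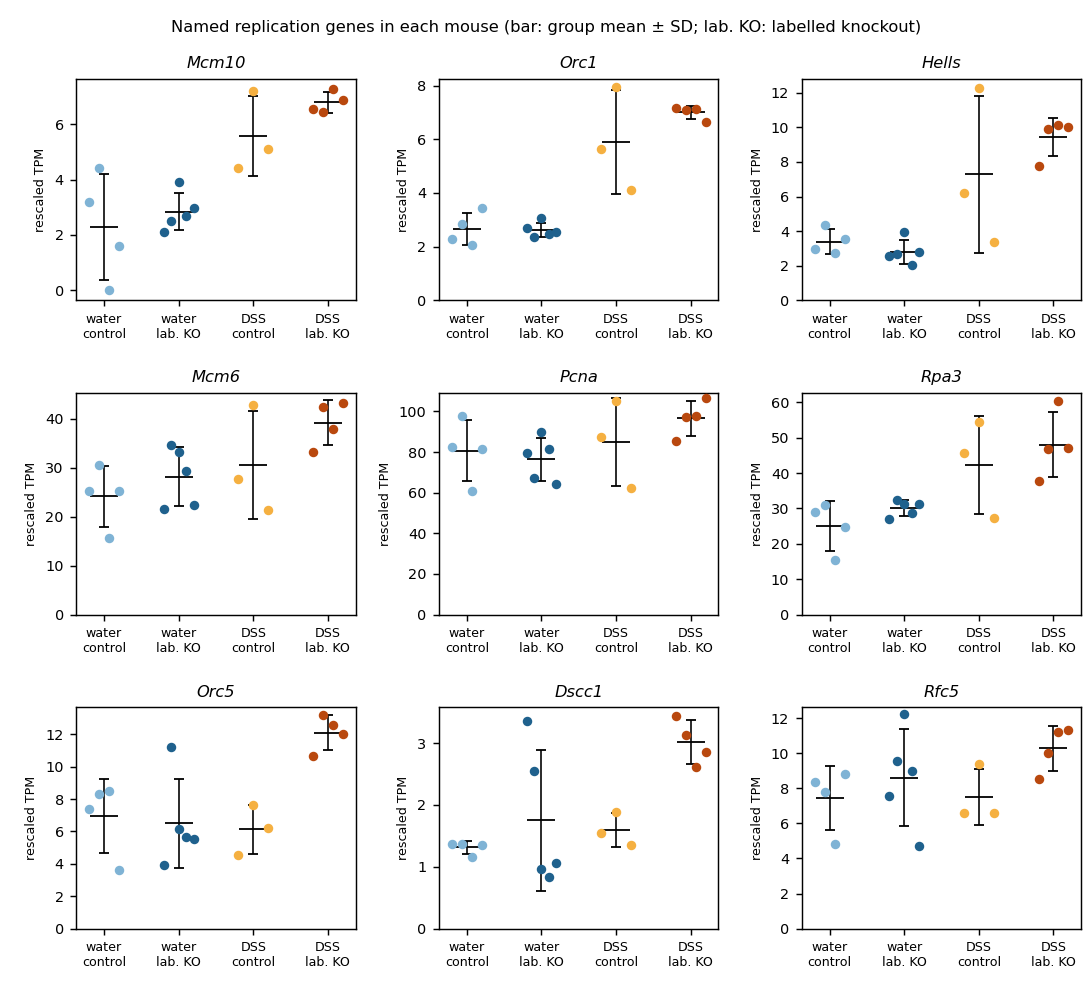
Rescaled TPM of 9 replication genes in each mouse (points) with the mean and SD of each of the 4 groups (bars). Orc1 and Mcm10 are higher in all 7 DSS mice than in all 9 water mice, Hells and Rpa3 overlap through DSS control 3 alone, Mcm6 and Pcna overlap through mice of both genotypes, and Orc5, Dscc1 and Rfc5 are higher in DSS labelled knockouts than in most DSS controls.

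Among the helicase genes, all 6 of Mcm2 to Mcm7 had a higher mean after DSS in both genotypes. The log2 differences ran from 0.17 to 0.45 in controls and from 0.20 to 0.82 in labelled knockouts. Mcm6 was at 25.2, 30.6, 15.7 and 25.2 TPM in water controls and 27.8, 42.8 and 21.3 TPM in DSS controls, which overlap. In labelled knockouts it was at 21.5, 34.6, 33.2, 29.3 and 22.5 TPM in water and 33.2, 42.4, 38 and 43.3 TPM after DSS, where the lowest DSS mouse lay below the highest water mouse. Mcm4 had the largest MCM difference, with 8.54 to 13 TPM in water labelled knockouts and 17.6 to 21.8 TPM after DSS. In controls it overlapped, at 7.07 to 13.9 TPM in water and 9.85 to 19.3 TPM after DSS, with a pooled SD of 0.43.

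The partners of the ring split. Gins1 had a log2 difference of 0.54 in controls and 0.94 in labelled knockouts, while Gins4 was at -0.17 and -0.29. Gins2 had the most negative difference of the whole set in controls, -0.57. It overlapped there, at 1.62 to 5.93 TPM in water and 0.79 to 2.76 TPM after DSS. In labelled knockouts Gins2 was at 1.66 to 3.92 TPM in water and 1.31 to 4.13 TPM after DSS. Clspn, which carries the signal of stalled forks to the checkpoint, was at 1.66 to 2.55 TPM in water labelled knockouts and 2.97 to 4.20 TPM in the DSS ones, which do not overlap. In controls Clspn overlapped, with a difference of 0.29 (pooled SD 0.43). Cdc45 had differences of 0.69 and 0.77, with a mouse listed at 0 among the water labelled knockouts.

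Of the other licensing genes, Cdc6, a loader of the MCM ring, had differences of 0.47 in controls and 0.59 in labelled knockouts. Orc5 and Orc6, further subunits of the origin recognition complex, were at -0.12 and -0.03 in controls and at 0.87 and 0.52 in labelled knockouts. Cdt1, the other loader, was at -0.16 and -0.08, and Gmnn, its inhibitor, at 0.10 and 0.41. In controls 3 of the 6 licensing genes had the higher mean log2 level. The negative differences of Orc5, Orc6 and Cdt1 there lay within their pooled SD (0.41, 0.70 and 0.27). For Orc6 the ratio of mean rescaled TPM was 1.09.

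Pcna was at 82.6, 97.6, 60.9 and 81.5 TPM in water controls and 87.6, 105.3 and 62.2 TPM in DSS controls. In labelled knockouts it was at 79.4, 67.3, 89.9, 81.7 and 64.3 TPM in water and 85.4, 97.1, 97.9 and 106.4 TPM after DSS. The groups overlapped in both genotypes, with log2 differences of 0.06 (pooled SD 0.33) and 0.34 (pooled SD 0.17). Of the genes that load the clamp, Rfc4 had differences of 0.64 and 0.56, Rfc1 of 0.16 and 0.64, and Rfc2 of -0.49 and -0.10.

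Of the 8 polymerase and primase genes 6 had the higher mean after DSS in each genotype, with medians of 0.24 in controls and 0.34 in labelled knockouts. Pold3, an accessory subunit of the lagging strand polymerase, was at 9.00 to 12 TPM in water controls and 10.8 to 18.7 TPM in DSS controls, and at 6.96 to 11.5 TPM in water labelled knockouts and 12.8 to 15.8 TPM after DSS. Pole, the catalytic subunit of the leading strand polymerase, had differences of 0.46 and 0.54. Pola2 and Pold2 lay between -0.07 and 0.00 in both genotypes. Pold1 had the most negative difference of this role in controls, -0.35, with overlap (3.78 to 7.21 TPM in water, 2.42 to 6.69 TPM after DSS). In labelled knockouts Pold1 was at 0 to 7.41 TPM in water and 3.74 to 4.98 TPM after DSS. Prim1, which makes the RNA primers, was listed at 0 in 5 of the 9 water mice and at 10.3 to 16.1 TPM in the other four, while the 7 DSS mice were at 9.56 to 17.3 TPM. Besides Rpa1, which is in no median, 7 genes (Prim1, Lig1, Uhrf1, Pold1, Cdc45, Mcm10 and Ccne2) were listed under 0.1 TPM in some mouse, and without them the medians were 0.18 in controls and 0.39 in labelled knockouts.

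On the lagging strand, Fen1, the flap nuclease, had differences of 0.11 in controls and -0.00136 in labelled knockouts. Rpa3 was at 29, 31.1, 15.3 and 24.8 TPM in water controls and 45.6, 54.4 and 27.3 TPM in DSS controls. In labelled knockouts it was at 27.1, 32.4, 31.2, 28.7 and 31.1 TPM in water and 37.9, 46.8, 60.3 and 47.1 TPM after DSS. The labelled knockout groups were separated and the control groups were not, through DSS control 3. Rpa2, the middle subunit, had differences of 0.04 and -0.12.

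Hells, a chromatin remodeller needed for DNA methylation, had, over all mice and in labelled knockouts, the largest difference among genes listed above 0.1 TPM in every mouse (in controls Orc1 had a larger one), and it was singled out after its values were seen. It was at 2.95, 4.33, 2.71 and 3.57 TPM in water controls and 6.21, 12.3 and 3.37 TPM in DSS controls. These overlapped, with a log2 difference of 0.78. In labelled knockouts it was at 2.55, 2.66, 3.95, 2.05 and 2.78 TPM in water and 7.79, 9.90, 10.1 and 10 TPM after DSS, with a log2 difference of 1.47 (pooled SD 0.21) and a 3.38-fold ratio of means. Only DSS control 3 lay within the range of the water mice. Dnmt1, which copies methylation onto the new strand, had differences of 0.01 and 0.16, and the CAF-1 histone chaperone gene Chaf1a of 0.06 and 0.26.

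In nucleotide supply, Rrm1, the large subunit of ribonucleotide reductase, was at 13.6 to 17.6 TPM in water labelled knockouts and 23.2 to 29.5 TPM after DSS. Its control groups overlapped, at 12.2 to 21.7 TPM in water and 14.9 to 27.7 TPM after DSS. Tyms, which makes the DNA precursor thymidylate, was at 3.58 to 5.19 TPM in water labelled knockouts and 7.19 to 8.39 TPM in the DSS ones. Its control groups overlapped too, at 4.26 to 7.81 TPM in water and 6.06 to 9.02 TPM after DSS. Tk1, the thymidine salvage kinase, had differences of -0.03 in controls and 0.05 in labelled knockouts. The cyclin E gene Ccne1 had differences of 0.45 and 0.54.

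**Figure D3:**
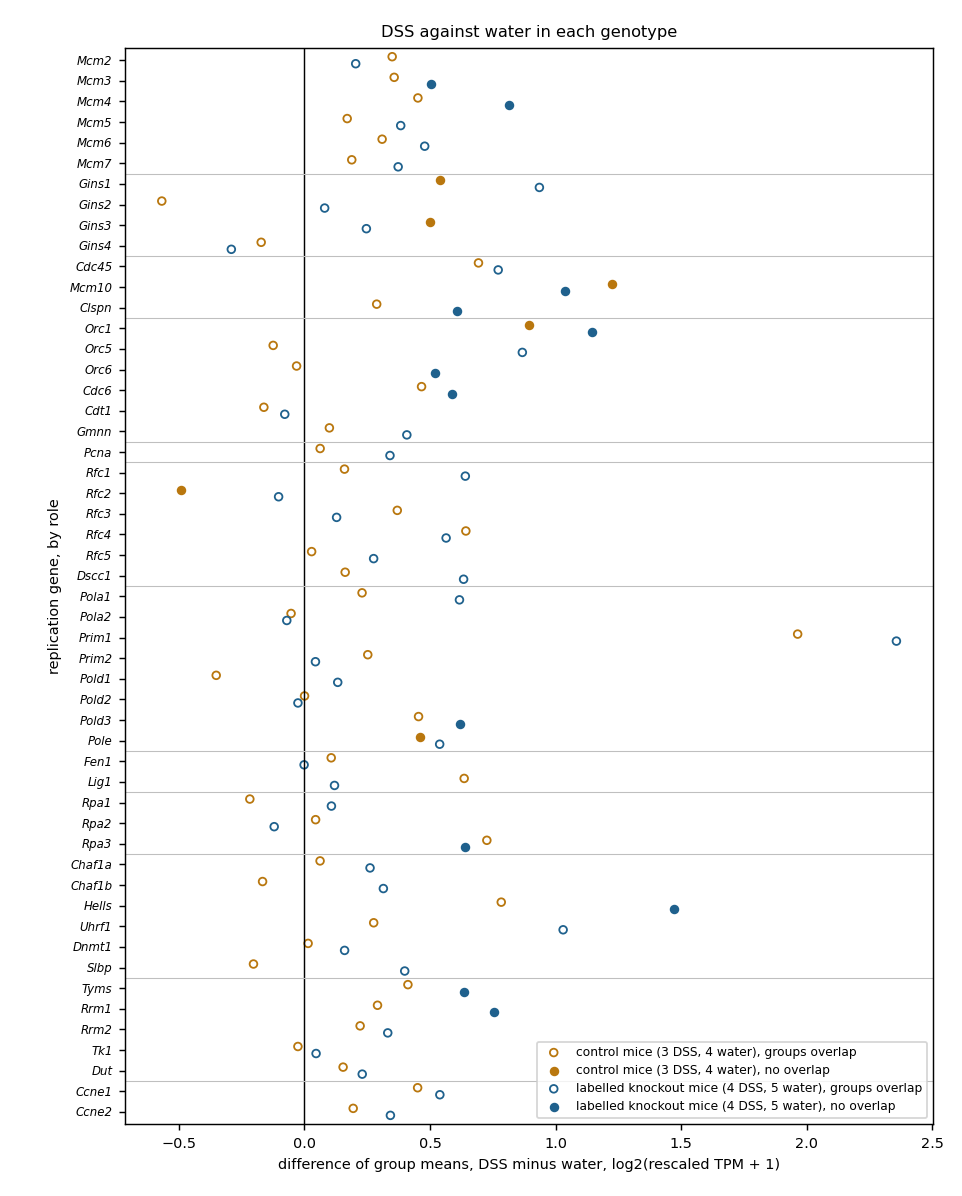
Difference of mean log2(rescaled TPM + 1), DSS minus water, of each replication gene (rows, by role) in control mice (orange) and labelled knockout mice (blue), with filled points where every DSS mouse lies on the same side of every water mouse. Most points lie right of 0, and filled points number 6 in controls and 12 in labelled knockouts.

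Upstream sequences of the genes were taken from RefSeq on GRCm38.p6, in which 42 of the 52 genes had an entry (no entry: Mcm4, Gins1, Gins2, Gins4, Gmnn, Rfc2, Dscc1, Prim2, Pole and Ccne2). The 250 bases before each start were searched on both strands for the E2F words TTTCCCGC, TTTGGCGC, TTTCGCGC and TTTGCCGC, where a word and the reverse of another may overlap. At least 1 word was found in 11 of the 42 genes (26.2%) against 2.16% of 27025 genes. The genes with a word were Mcm5, Mcm6, Mcm7, Gins3, Orc1, Cdc6, Rfc3, Pola1, Hells, Uhrf1 and Dnmt1. CCAAT, the word of the CCAAT box, was found in 61.9% against 37.5%, and TTTGAA or TTCGAA, the words of the CHR element of mitotic genes, in 19% against 19.6%. The members were chosen by function and a word is not a binding site.

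The windows of 4 genes are shown because Orc1 and Mcm10 were the genes separated over all mice, Hells had the largest difference over all mice among genes above 0.1 TPM in every mouse, and Mcm6 held the most words. Capitals mark E2F words, and each window runs 5′ to 3′ and ends at the base before the RefSeq start.
Orc1 (chr4:108579204-108579453, plus strand): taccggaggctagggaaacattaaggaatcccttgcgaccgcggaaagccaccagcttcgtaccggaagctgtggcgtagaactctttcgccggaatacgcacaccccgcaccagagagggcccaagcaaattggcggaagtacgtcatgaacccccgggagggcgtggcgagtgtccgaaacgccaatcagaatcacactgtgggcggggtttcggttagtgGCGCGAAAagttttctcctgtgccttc
Mcm10 (chr2:5012792-5013041, minus strand): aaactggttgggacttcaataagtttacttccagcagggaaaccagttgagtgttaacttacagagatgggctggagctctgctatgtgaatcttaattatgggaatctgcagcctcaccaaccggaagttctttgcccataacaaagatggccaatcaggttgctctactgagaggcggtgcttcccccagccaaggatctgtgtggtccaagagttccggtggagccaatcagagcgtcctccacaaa
Hells (chr19:38930740-38930989, plus strand): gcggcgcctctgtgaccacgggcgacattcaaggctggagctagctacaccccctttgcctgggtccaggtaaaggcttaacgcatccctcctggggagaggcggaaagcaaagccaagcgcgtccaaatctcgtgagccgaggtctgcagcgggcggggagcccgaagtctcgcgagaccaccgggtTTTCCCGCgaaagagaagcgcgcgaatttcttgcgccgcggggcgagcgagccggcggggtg
Mcm6 (chr1:128359706-128359955, minus strand): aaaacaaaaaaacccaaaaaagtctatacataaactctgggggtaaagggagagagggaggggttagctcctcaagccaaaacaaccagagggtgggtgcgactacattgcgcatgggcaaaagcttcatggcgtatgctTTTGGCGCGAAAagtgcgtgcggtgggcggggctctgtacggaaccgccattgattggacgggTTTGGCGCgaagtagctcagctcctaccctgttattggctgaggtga
Orc1 had 1 word 27 bases before the start, Hells had 1 word 62 bases before it, and Mcm6 had 3 words at 110, 106 and 47 bases, the first pair overlapping. The Mcm10 window held none of these words. Dnmt1, with a word in a single one of its windows (219 bases before that start), had differences between treatments of 0.01 and 0.16. Whether genes with a word differed from those without one was not tested.

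Other genes of the cell cycle were read from lists written for this tissue, and their separation over all mice is set beside 4.09% of all genes higher and 7.2% lower. Of 33 tested genes among 36 other replication genes, 27 had a higher mean after DSS in controls and 27 in labelled knockouts, with medians of 0.31 and 0.63. Every DSS mouse was above every water mouse for 2 of them, Cdc7, the kinase that fires origins, and Cdc25a, a phosphatase that activates Cdk2. Cdc7 was under 1 TPM in every water mouse. It thus reached a mean of 1 TPM through the DSS mice, where it was higher, and its separation carries no weight. Cdc25a had a log2 difference of 0.62 over all mice. Of 19 tested E2F and S phase regulators 15 were higher over all mice, and Mybl2 was separated with a difference of 0.49, while E2f1 was at -0.58 with overlap. Of 19 other nucleotide synthesis genes 10 were higher in controls (median 0.03), 12 in labelled knockouts (median 0.11) and 11 over all mice, where Ctps, which makes CTP, was separated. Of 24 mitosis genes 20 were higher over all mice, with a median of 0.46, and Mki67, Cenpe and Cenpf were separated with differences of 1.12, 1.01 and 1.10. Of 6 CDK inhibitors 2 had the higher mean, and Cdkn1a (-1.27) and Cdkn2b (-0.87) lay below every water mouse in every DSS mouse.

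Marker lists of epithelium and of other cells moved with the same contrast. Epithelial markers had the higher mean after DSS for 4 of 12 genes in controls and 5 in labelled knockouts, with medians of -0.38 and -0.32. In labelled knockouts Krt8, Krt19, Vil1, Cldn3 and Elf3 were lower without overlap (18.4% of all genes), and Epcam and Cdh1 higher (17%). In controls Cldn4 was lower (14.8%). Surface colonocyte markers had a lower mean after DSS for 8 of 8 genes in both genotypes, with a list level of 5.92 to 6.85 in water and 4.90 to 5.58 after DSS. Crypt progenitor markers were at 2.21 to 2.94 in water and 2.97 to 3.38 after DSS, with Myc under 1 TPM in every mouse. Of 9 tested progenitor genes, 6 had the higher mean over all mice. In controls Ephb2 was higher (9.54% of all genes) and Ascl2 lower (14.8%) without overlap. In labelled knockouts 5 were higher (17%) and 0 lower (18.4%). Leukocyte markers were lower for 11 of 11 tested genes, with a summed level of 1043 to 2054 TPM in water and 22.5 to 62.1 TPM after DSS. Plasma cell markers summed to 639 to 15785 TPM in water and 79.4 to 475 TPM after DSS, and stromal and endothelial markers to 342 to 1031 TPM and 112 to 507 TPM. Germinal centre B cell markers, which include dividing cells, summed to 8.31 to 28.1 TPM in water and 9.45 to 28 TPM after DSS, with Mef2b, Gcsam and Cr2 under 1 TPM in every mouse of both treatments. Their part in the replication gene levels was not tested.

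**Figure D4:**
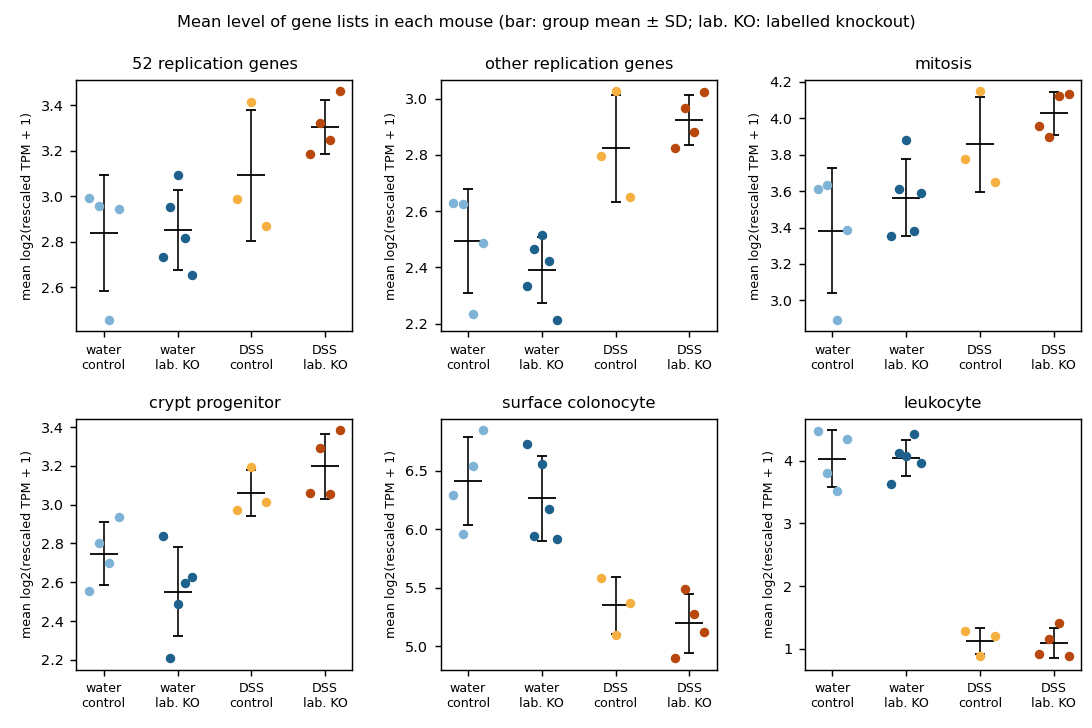
Mean log2(rescaled TPM + 1) of 6 gene lists in each mouse (points) with the mean and SD of each of the 4 groups (bars). The 52 replication genes lie at 2.46 to 3.10 in water and 2.87 to 3.46 after DSS, the mitosis and other replication lists are also higher after DSS, and the surface colonocyte and leukocyte lists are lower.

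Genotype was compared within each treatment by limma on log2(TPM + 1), fitted over every gene whose mean reached 1 TPM. After DSS none of the 51 replication genes tested was called at an adjusted p under 0.05, and 1 gene of 10899 (0.00918%) was called in the whole table. The estimates leaned to the labelled knockouts: 44 of 51 (86.3%) were positive against 52.8% of all genes, with a median log2 fold change of 0.23 against 0.02. At an unadjusted p under 0.05, 3 genes were higher (1.44% of all genes) and 0 were lower (1.21% of all genes). Every labelled knockout was above every control for 3 genes, Mcm5, Orc5 and Dscc1, against 2.13% of all genes, and below every control for 0, against 1.55% of all genes. The exact permutation tests given for single genes are two-sided, and the smallest p this design allows is 0.0286. Within cage c, with 1 mouse of each genotype, 37 of 51 were higher in the labelled knockout with a median of 0.21, and within cage d, with 3 against 2 mice, 42 of 51 with a median of 0.17.

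Orc5 (chr5:22486485-22550429, minus strand) had the smallest p. Its deposited level was 5.18, 8.64 and 7.66 TPM in DSS controls and 12.8, 15.4, 14.5 and 14.1 TPM in labelled knockouts. The groups did not overlap, and the log2 fold change was 0.92 ± 0.18 (SE). The limma p was 0.00102 before and 0.99968 after Benjamini-Hochberg adjustment, and the exact permutation p was 0.0286. The 2073 windows of 31 bases in its listed transcript all occur in other transcripts of the gene too, and Gm15421 overlaps its exons on the same strand.

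Dscc1 (chr15:55076099-55090491, minus strand), a subunit of an alternative clamp loader, was at 1.75, 2.15 and 1.67 TPM in DSS controls and 4.14, 3.66, 3.01 and 3.35 TPM in labelled knockouts. The groups did not overlap, and the log2 fold change was 0.67 ± 0.19 (SE), with a limma p of 0.00784 before adjustment and an exact permutation p of 0.0286. Rfc5 (chr5:117378103-117389047, minus strand), a small subunit of the main clamp loader, was at 7.48, 10.6 and 8.15 TPM and at 10.3, 11.7, 12.9 and 13.2 TPM. Its groups overlapped by 1 mouse on each side, and the log2 fold change was 0.43 ± 0.16 (SE), with a limma p of 0.0323 before adjustment and an exact permutation p of 0.0857. Both had a limma adjusted p of 0.99968 (Benjamini-Hochberg).

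By role, all 6 MCM genes and all 6 licensing genes had positive estimates after DSS, from 0.17 to 0.41 and from 0.23 to 0.92, none of them called. In water all 6 MCM genes were positive too, from 0.03 to 0.31, and 4 of the 6 licensing genes. Each of these MCM genes was lowest in water control 3 among the water mice. Their mean log2(rescaled TPM + 1) was 3.37 in that mouse and 3.77 to 4.36 in the other water mice. The MCM estimates in water without that mouse are not given here. After DSS Mcm5 was at 19.3, 23.8 and 22.6 TPM in controls and 26.1, 25.3, 24.3 and 28.4 TPM in labelled knockouts. These do not overlap, with a limma p of 0.0853 before adjustment and an exact permutation p of 0.0286. Polymerase and primase genes lay between -0.01 and 0.26, and the 5 nucleotide supply genes between 0.11 and 0.35. Cdc45 had the most negative estimate, -0.37 ± 0.31 (SE).

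After DSS the controls were spread more widely than the labelled knockouts. The mean log2 level over the 52 genes was 2.99, 3.41 and 2.87 in DSS controls and 3.19, 3.32, 3.25 and 3.46 in labelled knockouts. The median SD of a gene's log2 level was 0.37 in DSS controls and 0.16 in DSS labelled knockouts, and 0.33 and 0.32 in the water groups. DSS control 3 was the lowest of 7 mice for 24 genes (47.1% against 28.6% of all genes) and DSS control 1 for 18 (35.3% against 16%). DSS control 2 was the highest for 17 genes (33.3% against 14.4%) and labelled knockout 4 for 21 (41.2% against 8.54%). Without DSS control 2, 18 of the genes were higher at an unadjusted p under 0.05, of 298 higher genes among 10945, and none was called.

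Other lists gave no called gene after DSS either. Among 34 other replication genes 25 estimates were positive, with Cdc7 at 0.70 ± 0.22 (SE, limma p of 0.0141 before adjustment, exact permutation p of 0.0286) and Pole2, an accessory subunit of the leading strand polymerase, at 0.47 ± 0.20 (SE, limma p of 0.0469, exact permutation p of 0.0857). Among 24 mitosis genes 22 were positive with a median of 0.16 (in water 18 of 23, with a median of 0.14), and among 21 E2F and S phase regulators 9 were. Among 19 other nucleotide synthesis genes 16 were positive with a median of 0.16 (in water 9 of 19, with a median of -0.01). Of 6 CDK inhibitors 2 were positive, with a median of -0.13 and a highest estimate of 0.93, and Cdkn2b was at -0.42 ± 0.12 (SE, limma p of 0.00992 before adjustment, exact permutation p of 0.0286). Of the marker lists, surface colonocyte genes had a median of -0.26, crypt progenitor genes of 0.08 with Lgr5 at 0.60 ± 0.23 (SE, limma p of 0.032, exact permutation p of 0.143), and leukocyte genes of -0.18, where Itgam (1.36) and Coro1a (-0.82) lay on opposite sides. Plasma cell genes were positive for 3 of 3 tested, with a median of 0.58 and a highest estimate of 2.08. The 2 germinal centre B cell genes tested had a median of 0.32, the stromal and endothelial genes of 0.07 and the epithelial genes of -0.05. The part of these cells in the genotype difference was not tested.

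In water the estimates were spread around 0 over the whole set. Of 50 replication genes tested by limma, 27 (54%) had a positive estimate against 50.2% of all genes, the median log2 fold change was 0.02 against 0.001, and none was called where 1 gene of 11046 (0.00905%) was. At an unadjusted p under 0.05, 0 were higher (2.7% of all genes) and 0 lower (2.58% of all genes), and 0 genes were separated (0.67% of all genes higher and 0.878% lower). Mcm2 had the smallest p, with 9.30 ± 1.73 TPM (SD, n = 4) in controls and 11.9 ± 2.65 TPM (SD, n = 5) in labelled knockouts, a log2 fold change of 0.31 ± 0.18 (SE), a limma p of 0.106 (0.865 after Benjamini-Hochberg adjustment) and an exact permutation p of 0.143. Orc5 was at -0.08 ± 0.29 (SE), Dscc1 at 0.16 ± 0.29 (SE) and Rfc5 at 0.18 ± 0.26 (SE). The difference between the genotype effects of the treatments was not tested.

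The direction in water differed between the cages. Cage a held males, 2 labelled knockouts and 2 controls, and there 32 of 50 genes were higher in labelled knockouts with a median of 0.17. Cage b held females, 3 labelled knockouts and 2 controls, and there 23 of 50 were, with a median of -0.10. All 6 chromatin and methylation genes had negative estimates, from -0.57 for Uhrf1, which was listed at 0 in 1 labelled knockout, to -0.13. Water control 3 was the lowest of 9 mice for 21 genes (42% against 15.4% of all genes), and labelled knockout 3 the highest for 16 (32% against 9.51%). Water control 3 was 1 of the 2 controls in cage a, so the median there leans on it, and labelled knockout 3 was in cage b.

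**Figure D5:**
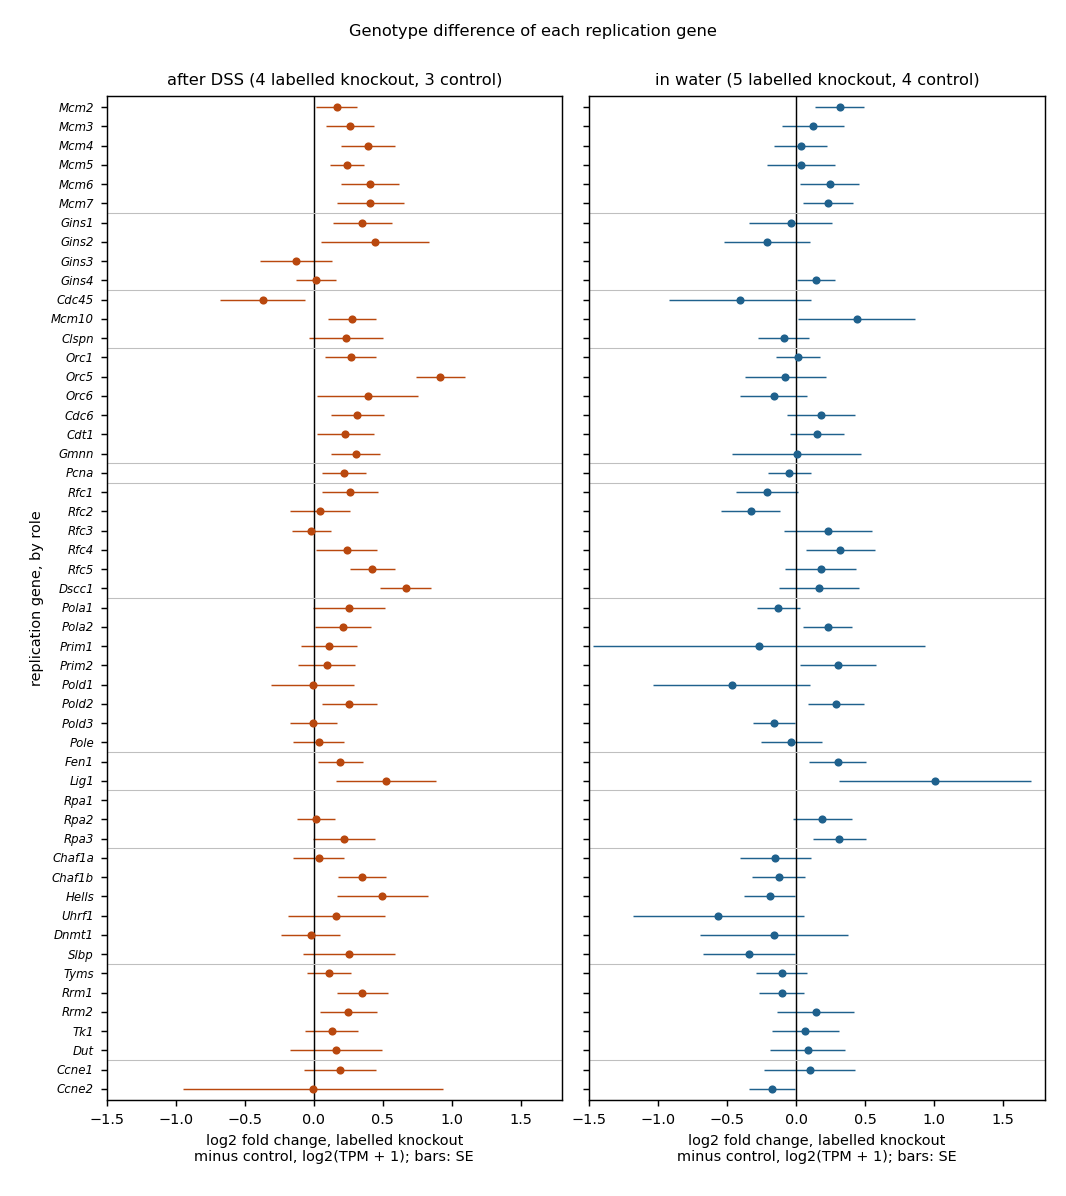
Log2 fold change of each replication gene (rows, by role), labelled knockout minus control, with its standard error (bars), after DSS (left) and in water (right). After DSS 44 of 51 points lie right of 0 with Orc5 farthest, and in water 27 of 50 do (Rpa1, and Gins3 in water, are not drawn, with means under 1 TPM).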

How the data were processed

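The authors sequenced stranded polyA libraries (single reads of 75 bases), pseudoaligned them with kallisto and tested genotype with sleuth. The processing notes name the build mm10. The authors deposited 1 table per treatment with TPM per transcript, listing principal transcripts alone. The use of strand in quantification is not given in the sources used here, and 18 of the 52 genes overlap exons of another gene. The deposited tables also hold the authors' own p-values, q-values and log2 ratios of genotype and means of natural log counts, which were not used.

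Repeated lines were dropped (29373 lines, 28988 unique transcripts), and TPM was summed per gene symbol. For 8 of the 52 genes several transcripts were summed. Genotypes were compared within a treatment with limma 3.58.1 in R 4.3.3 (variance trend, log2(TPM + 1), genes averaging 1 TPM or more), calls being adjusted p-values under 0.05 by Benjamini-Hochberg over the whole table. On the log2(TPM + 1) scale changes of low genes are understated. On simulated data with 200 changed genes, 29.5% were recovered after DSS (10899 genes) and 50% in water (11046 genes) at a log2 change of 1, and 74% and 80.5% at 2. Separation, or no overlap, means that every mouse of a group lies on one side of every mouse of the other. With 3 against 4 mice the smallest exact permutation p is 0.0286. The labels give no litters, and p-values measure the spread between these mice.

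The genes and lists were chosen with earlier results of these data known. Values in every DSS mouse are given for genes called or at an unadjusted p under 0.05 in a genotype comparison (Orc5, Dscc1 and Rfc5). Values in every mouse are given for those with the largest difference of a role among genes separated over all mice (Mcm10 and Orc1). They are also given for the 3 with the highest mean (Pcna, Rpa3 and Mcm6). Other genes were singled out after their values were seen. One marker of stromal cells, Myh11, was not found. Some marker genes are not reported here by name. Motif words were searched in RefSeq windows, of which 41 of 50 had the 20 bases after the start in an annotated transcript of the gene, listed or not. Positions are from GENCODE M21. Tables and figures were made in Python 3.11.15 (pandas 2.3.3, numpy 2.4.6, matplotlib 3.10.9). Alternatives were other scalings, pseudocounts and filters, a cage term, a replicate block, females alone and leaving out each mouse.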

Additional observations from a re-analysis of the deposited data

Results flagged for a closer look

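Groups of 4 or 5 mice were searched for a mouse far from the others (27 groups of values, of which chance gives about 1 in 20, and 3 were found). Water control 3 had the lowest mean over the 52 replication genes, 2.46 against 2.95 to 2.99 in the other water controls, with a gap of 0.912 of the group's range. It was also the lowest for Dscc1, with 1.16 against 1.36 to 1.37 rescaled TPM and a gap of 0.928. DSS labelled knockout 4 was the lowest of its group for Orc1, with 6.66 against 7.08 to 7.17 rescaled TPM and a gap of 0.836.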

How the results depend on the processing

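None of the replication genes was called by limma under any alternative in either treatment, leaving out each mouse in turn included. The count at an unadjusted p under 0.05 after DSS ran from 2 to 18 higher genes (lower: 0 to 0) when a mouse was left out, with 18 without DSS control 2 (all genes: 97 to 425 higher), and the median log2 fold change from 0.13 to 0.37. In water these were 0 to 2 higher genes (all genes: 232 to 434), 0 to 1 lower genes (all genes: 178 to 419) and a median of -0.09 to 0.09.

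Replicate numbers did not pair the mice: the correlation of same-numbered mice's deviations across genes was -0.197, -0.025 and -0.160 after DSS and -0.077 to 0.093 in water. With the replicate block 1 gene was higher after DSS at an unadjusted p under 0.05 (86 of all 10899 genes) and 2 in water (372 of all 11046), and the block changed no call.

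Between treatments the counts varied with the scaling. On TPM as deposited the median of all genes moved to 0.32 in controls, 0.31 in labelled knockouts and 0.32 over all mice, and that of the replication genes to 0.54, 0.75 and 0.65. Then 19 genes were higher and 0 lower without overlap in controls (31% of all genes higher), 25 higher in labelled knockouts (31.4%) and 9 over all mice (18.9%). By percentile rank 8 were higher (19% of all genes) and 0 lower (10.1%) in controls, and 20 higher in labelled knockouts (25.2%). Over all mice 2 were higher by rank, against 10% of all genes. By quantile normalization 8 were higher (18.9%) and 0 lower (10.2%) in controls. In labelled knockouts 20 were higher (25.3%), with a median of 0.55 there against 0.17 over all genes. Over all mice 2 were higher by quantile normalization, against 10% of all genes. Scaled by epithelial markers 1 was higher and 0 lower in controls (9.62%), and over all mice 1, Mcm10 (2.67%), with medians of 0.62 in labelled knockouts and 0.53 over all mice against 0.19 and 0.21 over all genes. In females alone (3 DSS and 2 water controls) 3 control genes were lower. Without the 7 genes under 0.1 TPM in some mice, a choice made after seeing the data, Orc1 was the 1 gene higher over all mice. Leaving out each mouse gave 5 to 16 higher and 1 to 3 lower genes in controls (median 0.06 to 0.39, 11.1% to 23.9% of all genes higher and 15.9% to 26.8% lower). In labelled knockouts it gave 12 to 21 and 0 to 1 (median 0.36 to 0.54, 17.8% to 20% and 19.3% to 21%), and over all mice 2 to 7 and 0 to 0 (median 0.26 to 0.40, 4.15% to 11.7% and 7.23% to 12.4%). The medians between treatments were above 0 under each alternative that gave one (percentile rank gave none), and the genotype median in water was -0.00181 with cage as a covariate. The cause of these shifts was not tested. Read depth is not given by TPM, and the number of mice limits precision.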
